A study of Mus musculus with 6 samples.

Results

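In the lip transcriptome of Gtf2ird1 knockout mice, 45 genes had almost no reads in any wild type (WT) library and a clear read count in every knockout (KO) library. They were taken from the 26814 gene symbols with counts by 2 limits, at most 3 counts in each of WT1, WT2 and WT3 and at least 20 counts in each of KO1, KO2 and KO3. The limits were met by 51 symbols (0.19% of the table), and 6 of these (Abcb5, Kcnk15, Dcc, Phf11a, Defb13 and Gm16028) were set aside by name. The reverse limits, at most 3 counts in each KO library and at least 20 in each WT library, were met by 0 symbols. Without KO3, 69 genes met the limits, and 45 to 52 did when another library was left out. The genes were thus chosen by the raw counts of all 6 libraries, so their levels are described here without a test.

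The libraries were made from the top lip of adult females aged 2 to 6 months, 3 KO and 3 WT, and each mouse gave 1 mRNA library. KO mice were homozygous for the Gtf2ird1 tm1Hrd allele, WT mice carried the intact gene, and both were on the C57BL/6J background. Gtf2ird1 encodes a transcription factor of the Gtf2i family. Read totals on genes were between 20164081 (KO1) and 29491767 (KO2), and a count of 3 corresponded to between 0.0985 CPM (reads per 1000000 reads on genes, after scaling by TMM factors) in KO2 and 0.153 CPM in KO1. The targeted gene had more reads in the KO libraries than in the WT libraries. Gtf2ird1 (chr5:134357656-134456716, GRCm38) had 78.0, 70.0 and 70.5 CPM in WT1 to WT3 and 166, 162 and 144 CPM in KO1 to KO3, a log2 fold change of 1.11 with a standard error of 0.13 and an adjusted p of 0.0018 in the edgeR quasi-likelihood test. The paper describes GTF2IRD1 protein as able to regulate its own gene by binding the promoter. The part of this in the higher Gtf2ird1 reads was not tested. Gene counts cannot show from which allele a read came, so every direction below refers to the libraries labelled KO and WT. The defining markers of lip tissue were present in all 6 libraries, with Krt5 at 4323 CPM or more, Col1a2 at 664 CPM or more and Acta1 at 715 CPM or more in each.

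Genes without reads in a tissue are usually held silent by closed chromatin or by the absence of an activating factor. Processed pseudogenes are copies of mRNAs written back into the genome, which mostly lack a promoter of their own and depend on transcription that starts nearby. Long non-coding RNAs and young gene families that duplicated in tandem, such as the antimicrobial beta-defensins, the MHC class I genes and the odorant receptors, are expressed in few tissues and differ in number between mouse strains. In a bulk library, a gene that becomes detectable in few cells and one that is weakly expressed in many cells cannot be told apart.

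**Figure D1:**
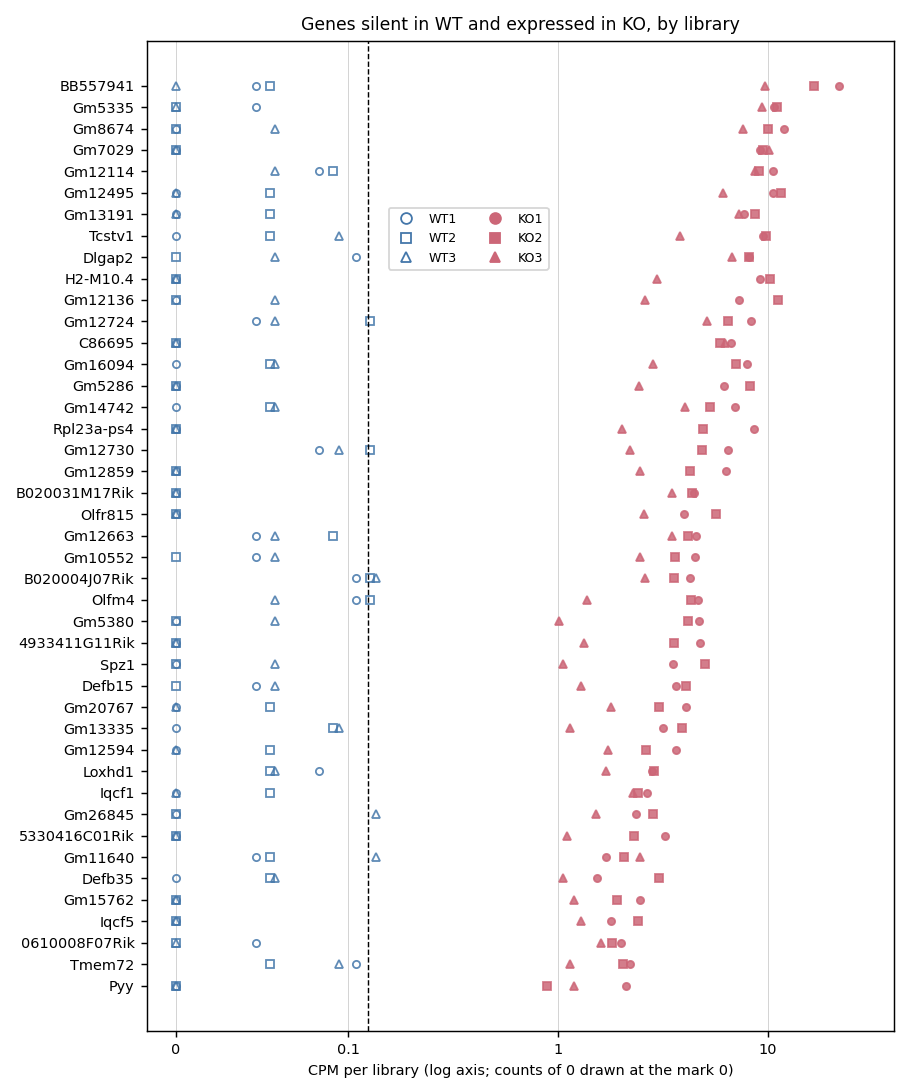
CPM in each of the 6 libraries (log axis, counts of 0 drawn at the mark 0) for 43 of the 45 genes, ordered by their mean in the KO libraries, with open blue marks for WT, filled red marks for KO and the dashed line at 0.124 CPM, the mean over WT libraries of a count of 3. WT values lie at or close to the line or left of it, and KO3 (triangles) is the lowest KO library for 39 of the 43 genes drawn.

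The 45 genes held 28, 33 and 35 counts in all in WT1, WT2 and WT3, and 5259, 7665 and 3376 counts in KO1, KO2 and KO3. Their summed level was 1.01, 1.40 and 1.57 CPM in the WT libraries and 268, 252 and 154 CPM in the KO libraries. Of the 45 genes, 13 had a count of 0 in all WT libraries, 12 in 2 of them, 10 in 1 and 10 in none. In reads, not corrected for gene length, mean KO levels were low, between 1.39 CPM (Pyy) and 16.0 CPM (BB557941) with a median of 4.06 CPM, against a median of 25.2 CPM over all genes with at least 20 counts in each KO library. Against 3 counts in each WT library, the KO mean was at least 11.2-fold (Pyy) to at least 129.7-fold (BB557941) higher, with a median bound of 32.9-fold. Of the 45, 43 passed the filter of at least 1 CPM in 3 libraries that the tests below use, and Gm5380 and Pyy did not.

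The plot of levels by library shows KO3 below the other KO libraries for most of these genes. KO3 was the lowest KO library for 40 of 45 (88.9%), against 41.6% of the other tested genes and 63.2% of the 614 other genes called higher in KO. With the 45 included, the edgeR quasi-likelihood test called 657 of 15009 tested genes higher (4.38%) and 314 lower (2.09%). The ratio of KO3 to the mean of KO1 and KO2 had a median of 0.554 for the 45 genes, of 0.813 for the other genes called higher and of 1.01 for the other tested genes. It was under 0.5 for 17 of the 45 and lowest for Gm5380 (0.227). It was above 1 for 2 genes, Gm7029 (1.08) and Gm11640 (1.31). The coefficient of variation over the KO libraries was under 10% for 5 of the 45 genes and above 50% for 12. In the tissue markers, the summed keratinocyte list fell from KO1 through KO2 to KO3, with 53503, 45819 and 38806 CPM. The dermal fibroblast list, with 2893, 3651 and 6900 CPM in KO1, KO2 and KO3, set KO3 apart. The part of tissue composition in the lower KO3 levels was not tested.

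**Figure D2:**
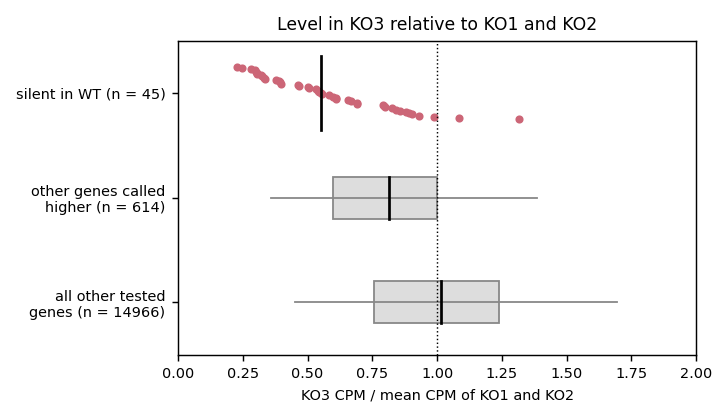
Level in KO3 divided by the mean of KO1 and KO2, for each of the 45 genes silent in WT (points, with their median as a black line) and, as boxes from the 25th to the 75th percentile with a median line and whiskers from the 5th to the 95th percentile, for the 614 other genes called higher and the 14966 other tested genes. The median is 0.554 for the genes silent in WT, 0.813 for the other genes called higher and 1.01 for the other tested genes, and the dotted line marks equal levels.

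By annotation, 22 of the 45 genes were protein-coding, 14 were long non-coding RNAs, 8 were processed pseudogenes and 1 (Gm26845) had no gene model in the annotation used. Protein-coding genes were thus 48.9% of them, against 95.4% of the other genes with at least 20 counts in each KO library. Processed pseudogenes made up 17.8%, against 1.19% for pseudogenes among those other genes. Long non-coding RNAs made up 31.1% against 3.27%. Provisional symbols that start with Gm and a number belonged to 22 of the 45 (48.9% against 3.24%). The 41 genes with a GENCODE model had a median exon length of 958 bases, against 4346 bases for the other expressed genes, and 8 of them had 1 exon (19.5% against 3.27%). Among all genes with a position, whatever their counts, 69.68% were protein-coding, 10.46% were pseudogenes and 11.97% were long non-coding RNAs. Against that wider set the contrasts in gene type were smaller. These shares were not tested, and by KO reads the 45 genes lay low among expressed genes, with a median percentile of 14.0.

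**Figure D3:**
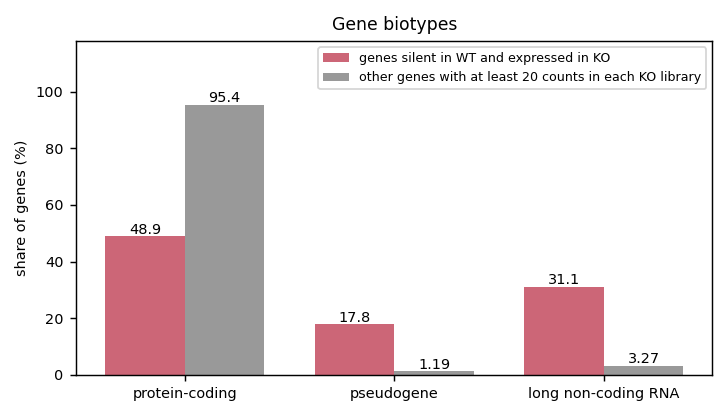
Share (%) of protein-coding genes, pseudogenes and long non-coding RNAs among the 45 genes silent in WT (red) and among the other genes with at least 20 counts in each KO library (grey). Protein-coding genes are 48.9% against 95.4%, pseudogenes 17.8% against 1.19% and long non-coding RNAs 31.1% against 3.27%.

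Of the 44 genes with a position, chromosome 13 held 7, chromosome 4 held 6, chromosomes 2 and 11 held 5 each, chromosome 8 held 4, and chromosomes 15, 16, 19 and Y held 0. As a share of all genes of a chromosome with at least 20 counts in each KO library, the 45 included, they were most frequent on chromosome 13 (1.34%) and next on chromosome 4 (0.647%). The 1 gene on chromosome 5, where Gtf2ird1 lies, was 4933411G11Rik, named Spdye4b by RefSeq, a member of the Speedy family of cell cycle regulators. It lay 8.72 Mb from Gtf2ird1 and had 0 counts in each WT library and 93, 108 and 29 counts in KO1, KO2 and KO3. The other 43 placed genes were on other chromosomes than the targeted locus. Gene counts hold neither sequence variants nor copy number, so the part of strain-derived segments or of extra gene copies was not tested.

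BB557941 (chr2:57127479-57181754, minus strand, long non-coding RNA of 1097 exon bases) had the most reads of the 45 genes. It had 1, 1 and 0 counts in WT1 to WT3 and 427, 505 and 212 counts in KO1 to KO3, a KO mean of 16.0 ± 6.08 CPM (SD, n = 3). KO1 was its highest library and KO3 its lowest. Per kilobase of exon its KO mean was 14.6 CPM, and over the 41 genes with a model this length-scaled level ran from 0.104 (Tmem72) to 38.9 (Gm7029), with a median of 4.91. Gm7029, a single-exon model of 246 bases annotated as protein-coding (chr17:33873837-33874082), had 0 counts in each WT library and 180, 288 and 221 in the KO libraries, 9.58 ± 0.463 CPM. Its KO values were the most even of the 45 genes, and 32.0% of its 100-base windows occurred unchanged in another annotated gene.

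The other long non-coding RNAs among the 10 genes with the most reads were Gm12114 and Gm13191. Gm12114 had 2, 2 and 1 counts in the WT libraries and 207, 276 and 189 in the KO libraries. Gm13191 had 0, 1 and 0 counts in WT and 150, 263 and 159 in KO. In both, the KO libraries differed little after scaling, with 9.42 ± 1.02 CPM for Gm12114 and 7.85 ± 0.706 CPM for Gm13191.

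Dlgap2, a scaffold protein of the postsynaptic density, was also among the 10 genes with the most reads. It had 3, 0 and 1 counts in WT and 159, 248 and 147 in KO (7.66 ± 0.818 CPM). Of its family, Dlgap5 rose (log2 fold change 1.12, standard error 0.22, adjusted p = 0.025), while Dlgap1 (-0.33) and Dlgap4 (-0.07) did not pass the test. The call of Dlgap5 held in 2 of the 6 fits that leave out a library. The neuron list (2 tested, 0 called by either tool, 1 lower at an unadjusted p under 0.05) summed to between 38.2 and 53.7 CPM in WT and between 37.8 and 42.6 CPM in KO.

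The remaining single protein-coding genes encode products known from other tissues. Loxhd1, a protein of the hair bundle of inner ear cells, had 2, 1 and 1 counts in WT and 55, 87 and 37 in KO. Spz1, a transcription factor of spermatogenesis, had 0, 0 and 1 counts in WT and 69, 152 and 23 in KO, and the other testis germ cell markers summed to 0.817 CPM or less in every library. Olfm4, a secreted glycoprotein of intestinal crypts and neutrophils, had 3, 3 and 1 counts in WT and 91, 131 and 30 in KO, with KO3 the lowest. Pyy, a gut peptide hormone, had the fewest reads, with 0 counts in each WT library and 41, 27 and 26 in KO. Olfr815, an odorant receptor, had 0 counts in each WT library and 78, 172 and 56 in KO, while of 3 tested olfactory epithelium markers 0 were called by edgeR or DESeq2 and 1 was lower at an unadjusted p under 0.05. B020004J07Rik had 3 counts in each WT library and 83, 109 and 57 in KO.

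All 8 pseudogenes were processed pseudogenes, and 6 of them had an annotated parent gene with counts. The sequences below set stretches of 60 bases of members beside a relative. Each was chosen as the stretch with the most differing bases of its pair, within an exon and within coding sequence of the relative. They thus show the most differences that such a stretch offers to tell the copies apart, not a typical number. The pairs are Gm12663 with Ublcp1, Gm12136 with Eif4a1, Rpl23a-ps4 with Rpl23a, and the tandem genes Gm20767 and Gm21761, read 5′ to 3′ from GENCODE M21 transcripts of GRCm38, with capitals at the bases that differ within a pair.
Gm12663 (chr11:16635944-16636003, minus strand, exon 1): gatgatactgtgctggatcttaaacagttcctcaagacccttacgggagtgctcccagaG
Ublcp1 (chr11:44466846-44466905, minus strand, exon 2): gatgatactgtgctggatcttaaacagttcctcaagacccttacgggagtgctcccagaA
Gm12136 (chr11:40569688-40569747, minus strand, exon 1): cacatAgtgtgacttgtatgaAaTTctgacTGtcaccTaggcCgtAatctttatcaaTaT
Eif4a1 (chr11:69668260-69668319, minus strand, exon 8): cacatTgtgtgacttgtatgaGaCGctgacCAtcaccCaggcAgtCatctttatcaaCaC
Rpl23a-ps4 (chr2:132662612-132662671, plus strand, exon 1): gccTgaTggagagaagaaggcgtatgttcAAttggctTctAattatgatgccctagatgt
Rpl23a (chr11:78181164-78181223, minus strand, exon 4): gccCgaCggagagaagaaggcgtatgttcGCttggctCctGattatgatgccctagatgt
Gm20767 (chr13:120154650-120154709, plus strand, exon 3): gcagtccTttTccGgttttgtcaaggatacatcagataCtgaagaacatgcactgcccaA
Gm21761 (chr13:119912670-119912729, minus strand, exon 3): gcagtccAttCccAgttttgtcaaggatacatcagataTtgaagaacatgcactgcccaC

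Over their whole aligned length, Gm12663 and Ublcp1 differed at 5 of 957 bases, Gm20767 and Gm21761 at 16 of 1368, Rpl23a-ps4 and Rpl23a at 32 of 454, and Gm12136 and Eif4a1 at 108 of 1200. Of the 100-base windows of Gm12663, 55.9% occurred unchanged in another annotated gene, so its counts are uncertain. For Gm12136, Rpl23a-ps4, Gm12859, Gm5335 and Gm5380 that share was 0%.

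Gm12136, a copy of the translation initiation factor gene Eif4a1, had 0, 0 and 1 counts in WT and 143, 339 and 57 in KO. Eif4a1 itself had 504 ± 57.2 CPM in WT and 683 ± 55.8 CPM in KO (n = 3 each), a log2 fold change of 0.44 with adjusted p = 0.106. Rpl23a-ps4, a copy of a ribosomal protein gene, had 0 counts in each WT library and 168, 149 and 44 in KO, beside a log2 fold change of 0.23 for Rpl23a (adjusted p = 0.267). Gm12859, a copy of the mitochondrial import receptor gene Tomm20, had 0 counts in each WT library and 123, 130 and 54 in KO, beside 0.09 for Tomm20 (adjusted p = 0.617). None of the 6 parent genes passed the edgeR quasi-likelihood test, though 3 were higher at an unadjusted p under 0.05 and 3 were called higher by DESeq2 and 1 by edgeR's exact test. The KO reads of a pseudogene, without correction for length, were between 1.03% (Gm12136) and 10.59% (Gm12663) of its parent's.

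Gm5335, a copy of the glycolytic gene Gapdh, had 1, 0 and 0 counts in WT and 210, 335 and 204 in KO. Its parent had a log2 fold change of -0.37 (adjusted p = 0.315), and 315 annotated genes were related to Gm5335 at 80% identity or more. Gm12663 had 1, 2 and 1 counts in WT and 89, 127 and 76 in KO, beside 0.67 for Ublcp1 (adjusted p = 0.0867). Gm5380 had 0, 0 and 1 counts in WT and 92, 127 and 22 in KO, beside 0.44 for the chaperonin gene Cct7 (adjusted p = 0.0703). The other pseudogenes had no parent in the count table by this search. Gm8674 had 0, 0 and 1 counts in WT and 233, 306 and 166 in KO, and Gm12495 had 0, 1 and 0 counts in WT and 206, 353 and 134 in KO.

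**Figure D4:**
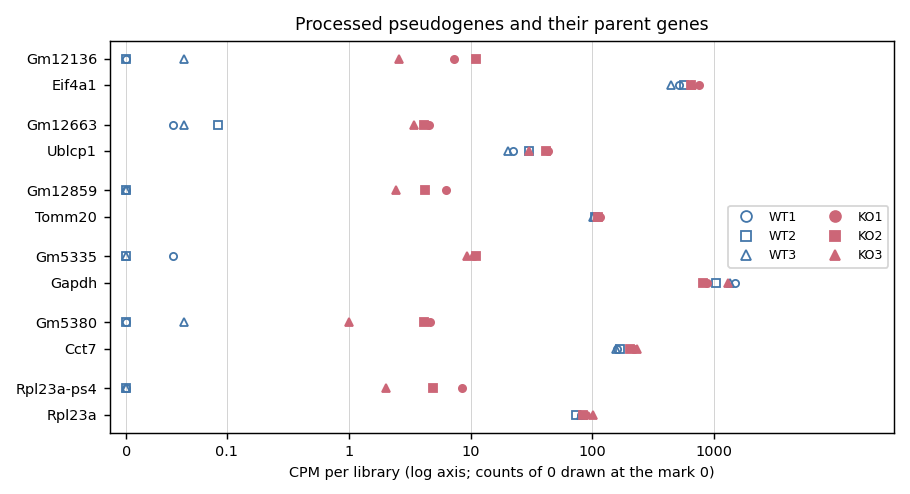
CPM in each library (log axis, counts of 0 drawn at the mark 0) for 6 processed pseudogenes and, below each, its parent gene, with open blue marks for WT and filled red marks for KO. The WT and KO libraries lie far apart for each pseudogene, while the parents, none of which passed the quasi-likelihood test, keep the same order of magnitude in all 6 libraries.

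Several of the genes lay next to each other. Of the 44 with a position, 12 were within 1 Mb of another and 11 within 100 kb. The group on chromosome 13 comprised Tcstv1, B020031M17Rik and Gm20767, genes of the tandem family named for Tcstv1, which is known from the 2-cell embryo. Tcstv1 (chr13:119893388-119894785) had 0, 1 and 2 counts in WT and 185, 298 and 83 in KO. B020031M17Rik (chr13:119949357-119950806) had 0 counts in each WT library and 87, 132 and 76 in KO. Gm20767 (chr13:120140246-120155335) had 0, 1 and 0 counts in WT and 80, 92 and 39 in KO. In each of the 3 genes the lowest KO library was KO3.

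Other genes related to these in sequence, on the same chromosome, missed a limit. Gm21761 had 0 counts in each WT library and 30, 40 and 4 in KO, Gm21818 had 0 in WT and 19, 34 and 15 in KO, and AF067061 had 0, 0 and 1 in WT and 44, 50 and 15 in KO. Further relatives had few reads in either group, with 0 counts in each WT library and 0, 4 and 0 in KO for Tcstv3, 0 in WT and 2 in each KO library for D13Ertd608e, and 3, 3 and 4 in WT and 2, 7 and 4 in KO for BC147527. The relatives with counts were 80.3% (Tcstv1 and D13Ertd608e) to 98.4% (Gm20767 and Gm21761) identical in sequence, and 43.9% of the 100-base windows of Gm20767 occurred unchanged in another gene. How the reads divide among these copies is therefore uncertain. Other markers of the 2-cell embryo (6 in the table with Tcstv1) summed to 0.673 CPM or less in each WT library and to 1.17, 1.18 and 0.228 CPM in KO1, KO2 and KO3.

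On chromosome 8, Defb15, Defb35 and C86695 lay together, with Defb13, one of the genes set aside, in the same group. Defb15 and Defb35 are beta-defensins, small secreted antimicrobial peptides. Defb15 (chr8:21929799-21932710) had 1, 0 and 1 counts in WT and 71, 124 and 28 in KO. Defb35 (chr8:21938352-21940878), 5642 bases away, had 0, 1 and 1 counts in WT and 30, 92 and 23 in KO. C86695, named Fam90a1a by RefSeq, had 0 counts in each WT library and 131, 179 and 136 in KO. Its KO libraries were even (6.26 ± 0.409 CPM), while KO3 was the lowest for both defensins. Of the other beta-defensins, 5 were tested and 0 called in the edgeR quasi-likelihood test, against 3 called higher by DESeq2, 2 by edgeR's exact test and 3 higher at an unadjusted p under 0.05. Defb14 (log2 fold change 1.71, adjusted p = 0.054) and Defb1 (0.52, adjusted p = 0.0638) were nearest to the threshold. The closest relative of Defb35, Defb12 (97.5% identical over 202 bases), was not in the count table.

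On chromosome 9, the testis genes Iqcf1 and Iqcf5, which encode proteins with an IQ calmodulin-binding motif, were 12319 bases apart. Iqcf1 had 0, 1 and 0 counts in WT and 52, 73 and 50 in KO. Iqcf5 had 0 counts in each WT library and 35, 73 and 28 in KO. Iqcf3, which overlaps Iqcf5, had 0, 0 and 1 counts in WT and 8, 4 and 3 in KO. Iqcf3, the 1 gene of the family in the table that the count limits did not choose, thus had more reads in each KO library than in any WT library but stayed below the filter.

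On chromosome 4, the long non-coding RNAs Gm12724 and Gm12730 lay 1243 bases apart on the same strand. Gm12724 (chr4:106241216-106290026) had 1, 3 and 1 counts in WT and 163, 197 and 112 in KO. Gm12730 (chr4:106291269-106292255) had 2, 3 and 2 counts in WT and 126, 148 and 48 in KO. KO1 was the highest library for both after scaling, and KO3 the lowest. Gm12731, a pseudogene that overlaps Gm12724, had 0 counts in each WT library and 12, 6 and 9 in KO.

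RefSeq promoters (GRCm38.p6, 250 bases before to 50 after a start) matched 17 of the 45 genes. The letters GGATTA, the core that GTF2IRD1 protein is known to bind, were found on either strand in 2 of the 17 (Gm12724 and BB557941), or 11.8%, against 8.14% of 27025 genes. The motif of the interferon-stimulated response element was found in 0 of the 17, against 3.99% of all genes. The Gm12724 promoter is shown because it belongs to a pair of adjacent genes and holds the GTF2IRD1 letters, given in capitals, 86 bases before the RefSeq start. That start lies upstream of the GENCODE start given above.
Gm12724 (chr4:106237022-106237121, plus strand): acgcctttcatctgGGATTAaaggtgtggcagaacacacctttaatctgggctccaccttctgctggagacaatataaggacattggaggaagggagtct
A match of letters is not a site of binding, and a promoter without a match lacks only these letters in this window.

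On chromosome 1, Gm16094 and Gm10552 lay within the Sp100 and Sp110 gene cluster, whose products are nuclear body proteins, many of them induced by interferon. Gm16094 (chr1:85599286-85599839, plus strand) lay between Sp110 (469 bases away) and Sp140 (539 bases away). It had 0, 1 and 1 counts in WT and 156, 215 and 62 in KO. Gm10552 (chr1:85604085-85611896, minus strand) lay inside Sp140 on the opposite strand. It had 1, 0 and 1 counts in WT and 88, 110 and 54 in KO. Reads of Gm10552 and Sp140 cannot be told apart without strand.

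The 4 tested genes within 100 kb of this pair were all higher in KO. Sp110 had 3.30, 3.99 and 5.74 CPM in WT and 1178, 1143 and 621 CPM in KO, with a log2 fold change of 7.82 ± 0.38 (standard error) and an adjusted p of 2.05e-05 by the edgeR quasi-likelihood test. Sp140 had 1.74, 1.87 and 1.39 CPM in WT and 42.2, 34.1 and 20.7 CPM in KO (4.27, standard error 0.30). Sp100 rose by 2.65 and the pseudogene Gm7592 by 3.94 on the log2 scale. Of the family, 7 genes were tested and 7 rose (edgeR quasi-likelihood test), against 4.1% of tested genes outside the 45 that were called higher and 2.1% that were called lower. Gm16026, Gm15753 and C130026I21Rik, of the same family, had 1.03 CPM or less in each WT library and between 52.4 and 391 CPM in the KO libraries. Each was called in 3 of the 6 fits that leave out a library, and not without KO1, KO2 or KO3. They needed the KO libraries to reach the filter of 1 CPM in 3 libraries, so once tested they could hardly be lower. The 7 of 7 is therefore partly set by the filter. KO3 was the lowest KO library for Sp110, Sp140, Gm16094 and Gm10552, whereas KO1 was the lowest for Sp100.

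Within 100 kb of the 45 genes lay 168 other genes of the count table, of which 86 could be tested. Of the 86, 11 were higher in KO and 1 was lower, against the 4.1% and 2.1% given above for all tested genes outside the 45. The 11 lay beside 8 of the 29 genes that had a tested neighbour. KO and WT libraries did not overlap for 32 of the 86, against 31.3% of the other tested genes, and the median log2 fold change of the neighbours was 0.03 against -0.02. The calls thus lay at a few places. Leaving out KO1 or KO2 gave 7 neighbours called higher and 0 lower, and leaving out KO3 gave 17 higher and 13 lower. Of the 82 tested neighbours that overlap none of the 45 genes, 8 were higher and 1 lower. Of the 4 that overlap one, 3 were higher. Within 50 kb, 10 of 47 tested neighbours were higher and 0 lower (1 lower by DESeq2, 2 by edgeR's exact test, 7 at an unadjusted p under 0.05), and within 500 kb, 33 of 340 were higher and 7 lower.

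**Figure D5:**
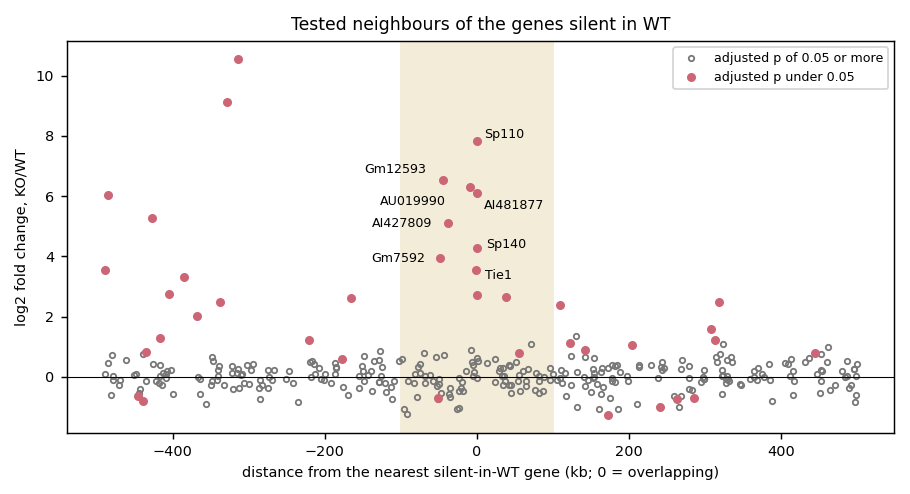
Log2 fold change of KO over WT for the 340 tested genes within 500 kb of a gene silent in WT, against the distance from the nearest one (kb, negative towards lower coordinates, 0 for overlap), with filled points for an adjusted p under 0.05 and the shaded band marking 100 kb. Inside the band 11 genes were called higher, Sp110 highest at 7.82, and 1 was called lower.

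Tie1, a receptor tyrosine kinase of blood vessels, lay on the same strand as Gm12859, which is 721 bases upstream of its start. Tie1 had 33.2, 29.4 and 40.3 CPM in WT and 434, 393 and 374 CPM in KO, a log2 fold change of 3.54 ± 0.17 (standard error) with an adjusted p of 1.84e-05. Of the 8 endothelial markers it was the only one called, and Pecam1 (-0.09) and Cdh5 (-0.63) did not pass the test. Gm12859 had 6.28, 4.27 and 2.47 CPM in KO, so that both genes were highest in KO1 and lowest in KO3.

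AU019990, a long non-coding RNA that ends 9174 bases before Rpl23a-ps4 on the same strand, had 0.290, 0.551 and 0.314 CPM in WT and 42.0, 35.1 and 15.3 CPM in KO (log2 fold change 6.31). Rpl23a-ps4 followed the same order, with 8.58, 4.89 and 2.01 CPM in KO1, KO2 and KO3. AI427809, a long non-coding RNA 37994 bases from Gm12495, had 1.01, 1.10 and 1.26 CPM in WT and 48.7, 36.4 and 31.0 CPM in KO (log2 fold change 5.10). Gm12594 lies within AI481877 on the same strand and had 0, 1 and 0 counts in WT and 71, 80 and 38 in KO. AI481877 had 1.67, 3.14 and 2.56 CPM in WT and 225, 215 and 67.4 CPM in KO (log2 fold change 6.11), and Gm12593, a pseudogene inside it, had 6.53. Reads of Gm12594 and AI481877 cannot be told apart where their exons overlap.

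Other called neighbours changed less. March10, which overlaps Gm11640 on the opposite strand, had 0.109, 0.170 and 0.359 CPM in WT and 1.94, 1.02 and 1.28 CPM in KO, a log2 fold change of 2.72 ± 0.48 (standard error) with an adjusted p of 0.0156. Gm11640 had 1, 1 and 3 counts in WT and 33, 63 and 54 in KO, and was 1 of the 2 genes that were highest in KO3. Gpd2, a mitochondrial glycerol phosphate dehydrogenase 55881 bases from BB557941, rose by 0.77 on the log2 scale (adjusted p = 0.0183). Kank3, 50919 bases from Gm7029, fell by 0.72 on the log2 scale (adjusted p = 0.0433). Of the 6 fits that leave out a library, Gpd2 was called in 2 and March10 and Kank3 in 1 each. Sp110, Sp140, Sp100, Gm7592, Tie1, AI427809 and AI481877 were called in all 6, and AU019990 and Gm12593 in 3. March10, AU019990 and Gm12593 were under 1 CPM in WT, so with a KO library left out they could not pass the filter. March10 was also not called without WT1 or WT2.

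Among neighbours with too few reads for the test, 37 had at least 10 counts over the 6 libraries. Of these, 28 (75.7%) had a higher summed level in KO, against 39.5% of the 5844 untested genes with as many counts, and 13 (35.1%) had 0 counts in all WT libraries, against 1.42%. R3hdml and Hnf4a overlap 0610008F07Rik, which RefSeq names Hnf4aos, the antisense partner of the liver and gut transcription factor gene Hnf4a. R3hdml had 0 counts in each WT library and 35, 39 and 11 in KO, and Hnf4a had 0 in WT and 5, 6 and 3 in KO. 0610008F07Rik itself had 1, 0 and 0 counts in WT and 39, 55 and 35 in KO. Gm12664, 6943 bases from Gm12663, had 0 counts in each WT library and 46, 40 and 16 in KO. Gm26619, 3701 bases from 5330416C01Rik, had 0 in WT and 28, 30 and 10 in KO, and 5330416C01Rik had 0 in WT and 63, 70 and 24 in KO.

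H2-M10.4 is a nonclassical MHC class I gene, of a group known from sensory neurons of the vomeronasal organ. It had 0 counts in each WT library and 180, 311 and 65 in KO, with KO3 the lowest. Its nearest relative in sequence, H2-M10.6 (88.5% identical over 1410 bases), had 0, 0 and 1 counts in WT and 0 counts in each KO library. Of 8 tested relatives, 4 were higher in KO, H2-T22, H2-Q10, H2-K1 and H2-Q7, with log2 fold changes between 1.12 and 1.92. These 4 matched H2-M10.4 over short stretches only, from 232 bases (H2-Q7) to 317 bases (H2-T22). Of the fits that leave out a library, H2-Q7 was called in 5 of 6 and the other 3 in 1 or 2. In H2-T22, H2-K1 and H2-Q7, KO1 was the lowest KO library, unlike in H2-M10.4. H2-Q10 had 5.77, 6.69 and 4.15 CPM in KO1 to KO3, so that KO3 was its lowest, as in H2-M10.4. The untested pseudogenes Gm20452 and Gm20451, within 100 kb, had 0 counts in each WT library and 23, 42 and 10, and 11, 30 and 1, counts in KO.

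Tmem72, which encodes a transmembrane protein known from the kidney, had 3, 1 and 2 counts in WT and 43, 62 and 25 in KO. Its exon model of 17177 bases shared sequence with 72 annotated genes, of which 21 were tested, 7 rose and 0 fell. The 7 were Tnfrsf22, Gm7102, Gm16344, Prkcq, Rpia, A530040E14Rik and Dhtkd1. At 90% identity or more, 6 of 9 tested relatives rose. A relative is here a gene that shares a stretch with the long exon model, which does not make it a gene of the same family. What these stretches are was not examined. Tnfrsf22, a decoy receptor for the death ligand TRAIL, had 14.2, 18.7 and 23.0 CPM in WT and 804, 770 and 234 CPM in KO (log2 fold change 5.02), with 97.8% identity to Tmem72 over 766 bases. Dhtkd1, a mitochondrial dehydrogenase subunit, had 9.09, 9.25 and 10.28 CPM in WT and 221, 205 and 142 CPM in KO (log2 fold change 4.31), with 97.3% identity over 260 bases. Of the 100-base windows of Tmem72, 23.7% occurred unchanged in another gene. A530040E14Rik (log2 fold change 6.04) shared 261 bases at 96.9% identity with Tmem72 and 372 bases at 100% identity with Gm10552.

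Over all 45 genes, 19 of the 41 with a GENCODE model had a relative with at least 80% identity over at least 200 bases, and for 13 of these the closest was on the same chromosome. Of 44 tested relatives outside the 45 genes, 11 were higher in KO and 0 lower, against 4.1% and 2.1% of the tested genes outside the 45 (1 relative lower by DESeq2 or edgeR's exact test, 3 lower at an unadjusted p under 0.05). All 11 were matched to H2-M10.4, Tmem72 or Gm10552, and those matched to H2-M10.4 or Tmem72 shared only short stretches of the exon model. Leaving out a library gave 6 called higher without WT1, 7 without WT2, 7 without WT3, 5 without KO2 and 18 without KO3. Gm7102 and A530040E14Rik were under 1 CPM in WT and were not called when a KO library was left out. For Gm5286, 61.6% of 100-base windows occurred unchanged in another gene, and it had 0 counts in each WT library and 121, 249 and 53 in KO. Its relative Gm10696 (93.2% identical over 1593 bases) had 0 in WT and 11, 20 and 4 in KO. Olfr815 shared 96.5% of 2284 bases with Olfr814, which was not in the count table.

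Of the remaining genes, Gm14742, Gm15762 and Gm13335 had no relative by these limits, and Gm26845 could not be searched. Of the 100-base windows of Gm14742, 5.3% still occurred unchanged in another gene. Gm14742, on the X chromosome, had 0, 1 and 1 counts in WT and 136, 161 and 88 in KO. Gm15762 had 0 counts in each WT library and 48, 58 and 26 in KO. Gm13335, which overlaps the tested gene Etl4, had 0, 2 and 2 counts in WT and 62, 119 and 25 in KO. Gm26845, with no gene model, had 0, 0 and 3 counts in WT and 46, 86 and 33 in KO.

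Markers of other tissues did not share one direction. Interferon-stimulated genes rose in 23 of 24 tested, with a median log2 fold change of 2.76, and their summed level was 143, 166 and 147 CPM in WT and 474, 1115 and 1041 CPM in KO. KO1 was the lowest KO library for them and KO3 was not, unlike for most of the 45 genes. Of 9 tested Oas genes, which encode sensors of viral RNA, 7 rose, and of 8 tested apolipoprotein L genes, 6 rose. Of the apolipoprotein L genes, 1 was lower by DESeq2, by edgeR's exact test and at an unadjusted p under 0.05. Oas1g, Oas3, Apol7a, Apol7b, Apol7c, Apol9a and Apol9b were not called when KO1, KO2 or KO3 was left out. Of the other families, 2 of 3 tested H2-M genes rose (H2-M2 and H2-M5), 1 of 2 tested Nat8 genes (Cml2), and of 10 tested keratinocyte markers 1, Ivl, rose. H2-M5 was called in 1 of the 6 fits that leave out a library, and limma-voom called 1 of the 3 H2-M genes. Cml2 was not called when KO1, KO2 or KO3 was left out. The Ivl call held in 1 of the 6 fits that leave out a library, 5 of the 10 were called higher by DESeq2 and by edgeR's exact test, and the summed list was 31658, 30989 and 26803 CPM in WT, beside the KO sums given above. Salivary gland markers (4 tested) rose in Aqp5 and Lpo, with a summed level of 64.1, 66.5 and 68.4 CPM in WT and 160, 111 and 91.3 CPM in KO. Among these 4, 1 was lower by DESeq2, by edgeR's exact test and at an unadjusted p under 0.05, and limma-voom called 1 higher. Aqp5 was called in 6 of the 6 fits that leave out a library, and Lpo in 3. Skeletal muscle markers (9 tested) fell in Tnnt3 and Pvalb, each called in 1 of the 6 fits that leave out a library. DESeq2 and edgeR's exact test each called 7 of the 9 lower, and 9 were lower at an unadjusted p under 0.05. Their summed level was 14908, 11723 and 15239 CPM in WT and 5905, 5763 and 9234 CPM in KO. Of 8 tested fibroblast markers 0 passed the quasi-likelihood test or DESeq2 (1 lower by the exact test, 2 lower at an unadjusted p under 0.05). The 1 tested marker of B and plasma cells, Blk, rose, but was called in 0 of the 6 fits that leave out a library and not by limma-voom. Over all lists, 48 of 111 tested genes rose and 2 fell, with 28 and 0 when KO1 was left out, 24 and 0 when KO2 was left out, and 24 lower when KO3 was left out. The part of these cell types in the reads of the 45 genes was not tested.

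The limits cut through a continuous range of counts. Of the 45 genes, 8 had a highest WT count of 3, and 6 had a lowest KO count of 25 or less, with Gm5380 (22), Spz1 (23) and Defb35 (23) closest to the limit. Just outside, 20 genes had the required KO counts and a highest WT count of 4 to 6, among them Apol7b (0, 5 and 1 in WT, 303, 564 and 257 in KO). A further 9 genes met the WT limit with a lowest KO count of 15 to 19. Of these, Drd3, a dopamine receptor gene, had 2, 0 and 0 counts in WT and 18, 20 and 19 in KO, and Scn1a, a sodium channel gene of neurons, had 1, 0 and 2 in WT and 45, 38 and 19 in KO.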

How the data were processed

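Top lip RNA of 3 KO and 3 WT mice was sequenced as paired-end mRNA libraries, and each library came from its own mouse. The authors mapped reads to GRCm38 with TopHat2 2.0.8 and Bowtie2 2.1.0 (per the submitters' processing notes) and deposited whole-number counts of reads assigned by HTSeq to each gene symbol, without normalization. Neither the mode nor the strand option of the counting is given in the sources used here. All 6 columns were used and 0 were left out.

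The genes described, the lists and the rule were chosen with earlier results of these data known. CPM were computed with TMM factors. The 15009 genes that reached 1 CPM in 3 or more libraries were compared by edgeR's quasi-likelihood test (edgeR 4.0.16, R 4.3.3) with Benjamini-Hochberg adjustment over all of them and a threshold of 0.05. Positions came from GENCODE M21, with RefSeq synonyms for 3 genes. Relatives came from blastn 2.17.0 on transcripts (identity at least 80% over at least 200 bases). Counts per library are given for the 10 genes with the most KO reads, genes near another, family members and genes at the limits, and also for the others, which the naming rule allows. Some of these genes are not reported here by name, nor drawn in the plot of levels by library. Called neighbours, relatives and list genes are named. A count of 3 is the limit that a count of 0 allows, and covers counting error only. Scripts were tested on simulated data. The alternatives were edgeR's exact test, DESeq2 1.42.0, limma-voom (limma 3.58.1), other scaling and filters, a replicate block, each library left out, other limits, distances and identity.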

Additional observations from a re-analysis of the deposited data

How the results depend on the processing

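Of the counts of calls, those of higher genes among neighbours, relatives and lists moved by over 1.5 times under some alternatives, and counts of lower genes moved most. Over all tested genes, edgeR's exact test called 1165 higher and 1073 lower. DESeq2, run on all 26814 genes without the 1 CPM filter, called 1511 and 898. DESeq2's size factors in the quasi-likelihood fit gave 207 lower, no filter 204 lower and a filter of 10 counts in every library 204 lower. On these wider sets DESeq2 called 25 of 168 neighbours higher and 2 lower, 22 of 222 relatives higher (19 of the 44 tested in the quasi-likelihood fit) and 10 of 192 list genes lower. Without a filter, 28 neighbours were called higher and 0 lower. The exact test called 6 neighbours and 11 list genes lower. Kank3, the neighbour called lower, was not called with library size alone or with 10 counts in every library (0 each), and lies outside 50 kb, where 0 were lower. Within 500 kb, 33 neighbours were higher and 7 lower, and at 90% identity 6 relatives were higher. The cause of these differences was not tested.

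Leaving out 1 library gave 208 to 2496 genes called higher and 18 to 2395 lower, with the highest counts without KO3. It gave 7 to 17 neighbours higher and 0 to 13 lower, 5 to 18 relatives higher, and 24 to 41 list genes higher and 0 to 24 lower. With 1 KO library left out, genes under 1 CPM in WT, such as AU019990, Gm12593 and Gm16026, cannot pass the filter of 3 libraries.

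With a block for replicate number, 580 genes were called higher, 217 lower and 4 list genes lower. The labels give these numbers only as replicates. The correlations of same-numbered deviations were -0.19, 0.29 and 0.31. Differently numbered libraries were not compared, so these values cannot show whether the numbers pair the samples.

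The number of genes silent in WT was 13 with a WT limit of 0 counts, 84 with a limit of 10, and 24 with a KO limit of 50. It lay between 45 and 69 when a library was left out, highest without KO3, and the reverse limits gave 0. A count of 0 in a WT library allows up to 3 counts, or 0.109 to 0.135 CPM.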
